A study of Mus musculus with 4 samples.

Results

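The response of IMS/N cells to interleukin 17A (IL17A) was measured in the absence of medium from adipose tissue-derived stem cells (ADSC medium). The comparison rests on 2 of the 4 arrays of the study, chosen by title, namely IMS/N + IL17A and IMS/N, which lay on the same slide. The other pair of arrays, on a slide of its own, held cells with ADSC medium, with and without IL17A. It shares no array with the first pair, and it differs from it in both medium and slide, which cannot be told apart. Its IL17A difference is given beside that of the first pair and is not a replicate of it. IMS/N is a line of hepatic stellate cells from the livers of healthy 129/Sv mice that was immortalized with SV40, so every group carries the viral genes. Treated cells received recombinant murine IL-17A from Peprotech, and untreated cells received neither the cytokine nor ADSC medium. Dose and duration are not given in the sources used here. Each group was 1 RNA sample on 1 array. No difference therefore has a replicate check, no test was made of this pair alone, and "higher" and "lower" describe 2 arrays.

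IL-17A binds a receptor built from the products of Il17ra and Il17rc, which recruit the adaptor Act1, encoded by Traf3ip2, and through it TRAF proteins. The signal activates NF-kB, MAP kinases and C/EBP factors and also stabilizes short-lived mRNAs of chemokines and cytokines. In mesenchymal cells it is known for inducing neutrophil-attracting chemokines, interleukin 6 and acute-phase proteins. Hepatic stellate cells are the vitamin A depot of the normal liver and turn into collagen-producing myofibroblasts in injury, and IL-17 signalling has been studied in them as a part of liver fibrosis.

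The promoters of 5 genes that were far higher with IL17A are shown because NF-kB and C/EBP factors are the known carriers of this signal. The RefSeq sequences run from 250 bases before to 50 bases after the start of the gene on GRCm38.p6. They lie at chr5:90890995-90891294 on the plus strand for Cxcl1, chr5:30012864-30013163 on the plus strand for Il6, chr2:32387690-32387989 on the minus strand for Lcn2, chr7:46715627-46715926 on the minus strand for Saa3 and chr4:125127832-125128131 on the minus strand for Zc3h12a. Capitals mark matches to the kB letters, GGG and TTCC with any 3 bases between them, or the C/EBP letters TTGCNNAA, searched on both strands.
Cxcl1: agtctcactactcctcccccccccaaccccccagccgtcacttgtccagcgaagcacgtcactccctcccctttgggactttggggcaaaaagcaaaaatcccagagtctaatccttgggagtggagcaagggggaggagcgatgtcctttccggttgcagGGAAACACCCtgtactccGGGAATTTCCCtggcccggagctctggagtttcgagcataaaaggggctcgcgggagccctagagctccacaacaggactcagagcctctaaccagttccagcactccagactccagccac
Il6: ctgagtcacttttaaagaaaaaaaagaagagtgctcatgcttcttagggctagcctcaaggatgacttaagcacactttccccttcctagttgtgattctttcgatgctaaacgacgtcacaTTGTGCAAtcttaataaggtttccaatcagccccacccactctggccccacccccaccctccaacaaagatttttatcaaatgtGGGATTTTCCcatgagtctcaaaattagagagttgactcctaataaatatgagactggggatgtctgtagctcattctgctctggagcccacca
Lcn2: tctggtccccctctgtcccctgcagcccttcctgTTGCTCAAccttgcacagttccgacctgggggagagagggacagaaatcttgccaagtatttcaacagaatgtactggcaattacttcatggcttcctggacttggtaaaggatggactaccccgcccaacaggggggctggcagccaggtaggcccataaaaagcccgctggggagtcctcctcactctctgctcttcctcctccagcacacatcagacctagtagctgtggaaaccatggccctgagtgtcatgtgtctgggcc
Saa3: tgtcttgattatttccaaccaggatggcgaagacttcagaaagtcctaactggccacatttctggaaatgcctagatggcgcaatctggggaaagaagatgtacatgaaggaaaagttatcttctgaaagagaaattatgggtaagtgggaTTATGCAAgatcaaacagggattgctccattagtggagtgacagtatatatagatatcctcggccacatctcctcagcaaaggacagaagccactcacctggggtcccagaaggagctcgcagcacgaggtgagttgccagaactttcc
Zc3h12a: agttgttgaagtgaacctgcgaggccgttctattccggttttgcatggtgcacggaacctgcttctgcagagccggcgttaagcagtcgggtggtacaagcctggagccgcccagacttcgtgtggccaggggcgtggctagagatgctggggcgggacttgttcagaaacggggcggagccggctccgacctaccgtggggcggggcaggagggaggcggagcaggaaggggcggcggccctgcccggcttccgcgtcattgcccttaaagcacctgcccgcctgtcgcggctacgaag

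The Cxcl1 promoter held 3 kB matches, of which GGGAATTTCC at 71 to 62 bases before the start and GGAATTTCCC at 70 to 61 overlapped. The Il6 promoter held the kB match GGGATTTTCC at 44 to 35 bases before the start, the C/EBP match TTGTGCAA at 128 to 121, and the AP-1 letters TGANTCA at 249 to 243, left in lower case. Lcn2 and Saa3 each held 1 C/EBP match, and Zc3h12a held none of these letters in its window. A promoter was at hand for 225 of the 344 genes at least 2-fold higher with IL17A, for 197 of the 357 at least 2-fold lower, and for 10712 of the 15765 genes measured. C/EBP letters stood in 18.7% of the promoters of higher genes, 7.61% of those of lower genes and 8.15% of those of all measured genes. They stood in 27.8% of the 72 promoters of genes higher in both pairs of arrays, in 18.6% of the 59 promoters of genes at least 4-fold higher and in 10.8% of all 27025 promoters in the table. AP-1 letters stood in 15.6% of the promoters of higher genes, 22.2% of those higher in both pairs, 25.4% of those at least 4-fold higher, 9.64% of those of lower genes, 5.23% of those of measured genes and 7.93% of all promoters. The kB letters stood in 7.11% of the promoters of higher genes, 6.60% of those of lower genes, 6.06% of those of measured genes, 5.52% of all promoters, in 13.6% of those at least 4-fold higher and in 6.94% of those higher in both pairs. The letters TATAAA stood in 19.1% of the promoters of higher genes, 18.1% of those higher in both pairs, 16.9% of those at least 4-fold higher, 17.3% of those of lower genes, 8.35% of those of measured genes and 14.2% of all promoters. The C/EBP share was thus above that of measured genes among higher genes alone, whereas the AP-1 and TATAAA shares were above it in both directions. A match is a stretch of letters and not a measured binding site.

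Levels are log2 processed signals, quantile normalized over the 4 arrays, and differences are log2 levels with IL17A minus untreated. Of 43379 spots, 60.4% were well above background on the untreated array and 58.1% on the IL17A array, and none was saturated. Spots of the same probe gave a technical SD of the difference of 0.439 below a level of 5, 0.0949 from 5 to 7, 0.0702 from 7 to 9 and 0.0453 at 11 and above. These SDs hold no variation between cultures. Genes are called higher or lower from a difference of 2-fold on, a log2 of 1, provided that the brighter of the 2 signals stood well above background. A dimmer side that failed this mark was replaced by the lowest level that passed it on that array (2.34 untreated, 2.74 with IL17A), unless its own value was larger, and such a fold is given as "at least".

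The cells carried the stellate receptor gene Pdgfrb at 11.81 untreated and 11.49 with IL17A, and 12 of 16 stellate markers were measured. The stellate filament gene Des was near background, at 2.95 and 2.66, and Lrat, which esterifies vitamin A for storage, was not well above background on either array. Hepatocyte genes Alb, Ttr and Hnf4a, macrophage genes Adgre1 and Ptprc, and endothelial genes Pecam1 and Cdh5 were not well above background on either array. Other members of these lists were above background on both arrays, namely Tat and Ass1 (12.62 and 11.84) of the hepatocyte list, Cd68 (5.82 and 5.91), Cd5l (3.26 and 3.35) and Csf1r (3.15 and 4.56) of the macrophage list, and Kdr, Stab2 and Vwf, at 3.50 to 4.02, of the endothelial list. Ass1, an enzyme of arginine synthesis, accounts for nearly all of the hepatocyte sum. The mesothelial gene Msln stood at 14.03 and 13.31 and the cholangiocyte and mesothelial keratin gene Krt19 at 9.38 and 7.99, while Epcam and Upk3b were not well above background. The cholangiocyte gene Krt7 stood at 5.25 and 4.65, the lymphocyte gene Cd3e at 4.48 and 4.76 and the adipose gene Pi16 at 3.89 and 4.23. Adipoq, another adipose gene, was not well above background, and the neutrophil gene Ly6g was not on the array. The summed level of the 14 macrophage markers on the array went from 6.55 to 6.91, that of the 13 hepatocyte markers from 12.63 to 11.86, and that of the 12 endothelial markers from 5.96 to 5.89. For cholangiocyte markers the sum went from 12.47 to 13.07, for mesothelial markers from 16.05 to 15.83, for neutrophil and lymphocyte markers from 7.11 to 7.27, and for adipose stromal markers from 15.14 to 15.01. The brightest cholangiocyte marker stood at 12.17 untreated, close to the sum of its list. Of the 5 cholangiocyte markers above background on both arrays, 3 were below 0 and 2 above, with a median of -0.16. The part of such cells in the results was not tested. In bulk RNA, fewer cells of a type and less RNA per cell cannot be told apart.

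Of 15765 genes measured, 344 (2.18%) were higher by this rule in the IL17A array and 357 (2.26%) were lower. List counts below are to be read beside these shares. The median over genes above background on both arrays was 0.005, with quartiles of -0.16 and 0.16. The higher side held the larger differences, with 55 genes at least 4-fold higher against 20 lower and 12 at least 16-fold higher against 0 lower among genes above background on both arrays. Bright genes were called less often in each direction. At a mean level of 11 and above, 0.546% were higher and 0.172% lower, while below 5 the shares were 3.52% and 3.01%. Of 114 called genes with at least 2 RefSeq probes, 102 (89.5%) had no probe of the opposite sign. The split turned with the scaling, to 265 higher and 527 lower with 75th percentile scaling, and shrank to 97 higher and 63 lower with normexp background correction. Median scaling gave 409 higher and 320 lower and moved the median of all genes to 0.21, so its calls are shifted upwards by that much. Of the genes called, 96 higher and 43 lower kept their call with the 3 other scalings, with normexp and with spots of uneven pixels left out, and such genes are called stable below.

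**Figure D1:**
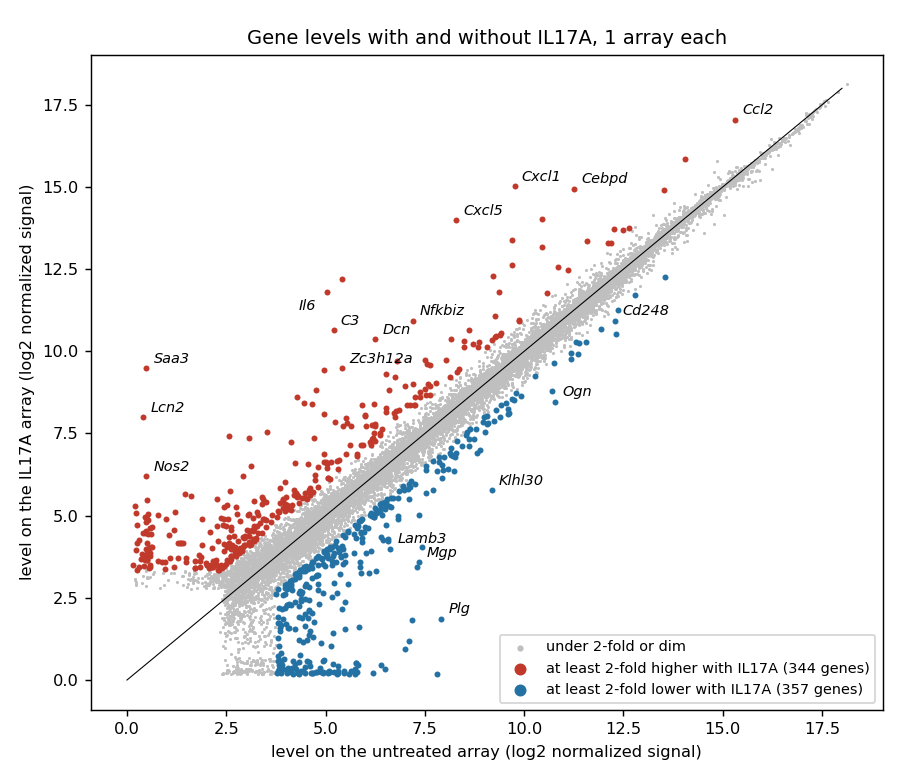
Levels of each gene on the untreated array (x axis) and the IL17A array (y axis), both as log2 normalized signal, with 1 point per gene and the line of equal levels. The 344 red genes at least 2-fold higher reach farther from the line than the 357 blue genes at least 2-fold lower, many of which sit at background on the IL17A array.

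Part of the lower genes were above background on the untreated array alone. Of the 357 lower genes, 108 were well above background on the untreated array and on none of the other 3. Spots brighter than a log2 signal of 5 on that array alone numbered 45, at rows 321 to 523 of 532. The IL17A array had 4 such spots, with a median row of 493, the medium array 15, with a median row of 441, and the array with both 36, with a median row of 387, and the first of them stood at rows 208, 396 and 279. With row 321 as a limit taken from these spots themselves, 62.7% of lower genes, 47.1% of higher genes and 41.0% of genes measured lay at or beyond it. Pixels varied by more than 0.3 times their mean on the bright spot for 90 of the 357 lower genes, 39 of the 344 higher genes and 247 of the 15765 measured. The part of the array in these differences was not tested. Without spots of such uneven pixels, 304 genes were higher and 266 lower.

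**Figure D2:**
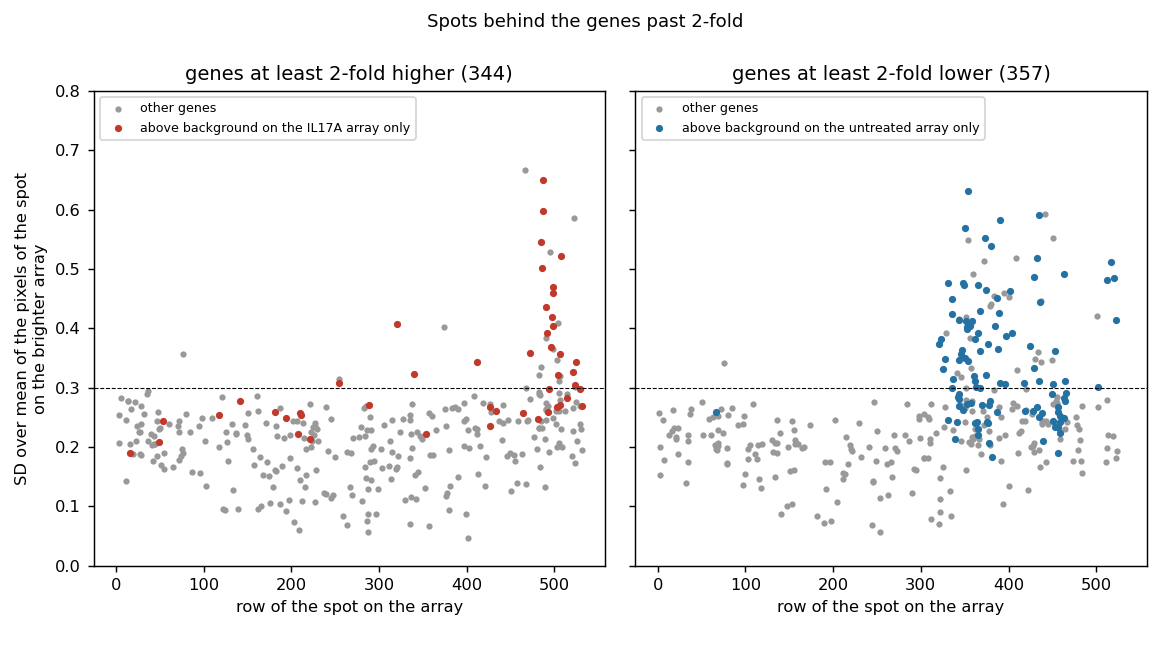
Row of the spot on the array (x axis) against the SD over the mean of the spot's pixels on the brighter array (y axis) for genes at least 2-fold higher (left, 344) and lower (right, 357). Colours mark genes above background on 1 array only, and the dashed line marks 0.3. On the right, the 108 coloured genes lie mostly in the late rows and many lie above the line.

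The receptor genes were near their untreated levels. Il17ra, the shared IL-17 receptor chain, stood at 7.95 untreated and 7.85 with IL17A, and Il17rc at 13.43 and 13.15. Il17rd, a modulating receptor of the family, went from 6.77 to 6.15. A dimmer probe of Il17rd gave 0.06. In the medium pair Il17rd differed by -0.51. Il25, another cytokine of the family, was above background on the untreated array only and at least 4.55-fold lower, but its spot there had pixels of a relative SD of 0.48, and it was at background on both medium arrays. Of the adaptors and kinases, 1 of 16 passed 2-fold. Traf3ip2, which encodes Act1, went from 7.64 to 8.68, a difference of 1.05, against 0.52 in the medium pair. Traf2, which Act1-bound complexes use to hold mRNA-stabilizing factors, differed by 0.48, Traf5 by -0.50 and Traf6 by 0.09.

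Of 11 measured genes that carry or curb NF-kB signals, 4 were higher and 0 lower, against 2.18% and 2.26% of all genes measured. Nfkbiz, which encodes the IκBζ cofactor needed for many IL-17 targets, went from 7.19 to 10.93, a 13.4-fold difference, and from 7.44 to 11.04 in the medium pair. Bcl3, a nuclear IκB protein, went from 9.21 to 12.30, and from 10.41 to 12.29 with medium. Both pairs thus put Nfkbiz and Bcl3 higher, with the difference in Bcl3 smaller with medium (3.09 and 1.87). Nfkbia, the inhibitor that retains NF-kB in the cytoplasm, differed by 1.18 and 0.94, and Nfkbid by 1.03. The call of Nfkbid was lost with 75th percentile scaling and with normexp. The subunit genes stayed under 2-fold, with Nfkb1 at 0.76, Relb at 0.31, Rela at 0.24 and Nfkb2 at 0.03. Ubiquitin-editing regulators, which switch the pathway off, held 0 calls among 10 members, with a median of -0.06 and with Tnfaip3 at 0.07.

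Zc3h12a encodes Regnase-1, a nuclease that destroys inflammatory mRNAs. It went from 5.42 to 9.48, 16.6-fold, and from 5.10 to 9.06 in the medium pair, so the difference was nearly the same size in both. It was the 1 gene called among 11 mRNA stability genes, of which 9 were above 0 with a median of 0.38. Zfp36l1, which promotes mRNA decay, differed by 0.76, and Arid5a, which protects Il6 mRNA, by 0.69, against 0.38 and 0.14 with medium.

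Among C/EBP factors, 2 of 5 were called and all 5 were above 0. Cebpd, an inducible member, was bright already, at 11.26, and reached 14.94 with IL17A, 12.8-fold. Cebpb, which acts with it, went from 8.36 to 9.47. In the medium pair Cebpd differed by 3.38 and Cebpb by 0.89. All 9 genes of the list of AP-1 factors and Atf3 were above 0 and 3 were called, namely Junb (1.45), Atf3 (1.34) and Fos (1.19). None of the 3 was called in the medium pair, where Fos stood at -0.61. Egr1, an immediate early factor outside that list, was lower by 0.78 without reaching 2-fold. Spry1, which dampens MAP kinase signals, was the 1 lower gene among 12 feedback genes, at -1.48, and Dusp1 stayed at -0.04.

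Il6 went from 5.04 untreated to 11.80 with IL17A. The 10 spots of its probe gave a mean difference of 6.76 with a technical SD of 0.113. In the medium pair it went from 4.99 to 10.47. Around it, the receptor gene Osmr, which binds oncostatin M, went from 9.37 to 11.79 and Socs3, the feedback inhibitor of cytokine receptors of this family, from 10.84 to 12.55. These 3 were the called members among 14, and all 3 were called again with medium and were stable. Stat3, the factor these receptors activate, differed by 0.67, while the receptor gene Lifr (0.03) and the cytokine gene Il11 (0.05) lay within the spot noise of their level by their brightest probes.

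Of the CXC chemokines, Cxcl1, Cxcl5 and Ppbp, which attract neutrophils, were called higher in both pairs. Cxcl5 went from 8.28 to 13.98 and Cxcl1 from 9.76 to 15.02, with 7.14 to 13.06 and 9.08 to 14.46 in the medium pair. Ppbp, a related chemokine, went from 3.99 to 6.03, 4.11-fold. Cxcl2, another neutrophil attractant, was at background on both medium arrays and was dim here, at least 2.10-fold higher at a level of 3.41, and Cxcl16, which attracts T cells, differed by 1.25. In all, 5 of 10 CXC chemokines were higher and 0 lower. Of the 10, 7 passed the background flag untreated and 10 with IL17A, so the count is partly set by that flag. The median was 1.25 over the 7 above background on both arrays. The interferon-induced Cxcl10 (0.72) and Cxcl11 (0.77) stayed under 2-fold. Cxcl12, a constitutive stromal chemokine, lay below its untreated level by a difference of -0.70.

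Of 14 CC chemokines, 7 were higher and 0 lower, and with normexp 4 were higher. The median was 1.01 over the 10 above background on both arrays. Of the 14, 12 passed the background flag untreated and 12 with IL17A. The calls of Ccl11 and Ccl20, given as bounds below, rest partly on that flag. The monocyte-attracting Ccl2 stood at 15.31 untreated and 17.05 with IL17A, and the 10 spots of its probe gave 1.74 with a technical SD of 0.109. Ccl7 went from 14.04 to 15.85 and Ccl8 from 7.63 to 9.59. In the medium pair these 3 were again at least 2-fold higher, by 2.30, 2.22 and 1.41. Ccl5 (1.16) and Ccl4 (1.32) were higher without medium alone, with 0.82 and 0.48 beside it. Ccl11, which attracts eosinophils, was at least 3.76-fold higher and Ccl20, which attracts Th17 cells, at least 7.20-fold higher. Ccl20 stood at 4.26 and 4.07 on the medium arrays, a difference of -0.19.

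Interleukin-1 family genes held 2 calls among 7. The alarmin gene Il33 went from 4.65 to 8.39, 13.3-fold, and Il1rn, the natural receptor antagonist, from 4.72 to 7.37. Both were higher again with medium, by 2.48 and 1.56, and the receptor chain Il1r1 lay at 0.70 and 0.71 in the 2 pairs. Colony stimulating factors, which drive myeloid cells, held 3 higher calls among 8, with Csf1r as the third, and normexp ended all 3 calls. Of the 8, 6 passed the background flag untreated and 8 with IL17A, so the count is partly set by that flag. Csf3, which drives neutrophil production, went from 1.47 to 5.67, at least 10.1-fold, and Csf2 from 0.46 to 4.97, at least 6.20-fold. Both were called with medium too. Csf1, the macrophage growth factor, stood at 13.29 and 13.23. Among 11 TNF superfamily genes 4 were higher, with the death receptor gene Fas at 2.80 over 10 spots with a technical SD of 0.0586, Tnfrsf9 at 1.55 and Tnfrsf1b at 1.05, with 0.20 by a dimmer probe. The fourth, Tnfsf15, rested on a spot of uneven pixels (0.40). Of the 11 TNF superfamily genes, 9 passed the background flag untreated and 11 with IL17A, so this count too is partly set by the flag.

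**Figure D3:**
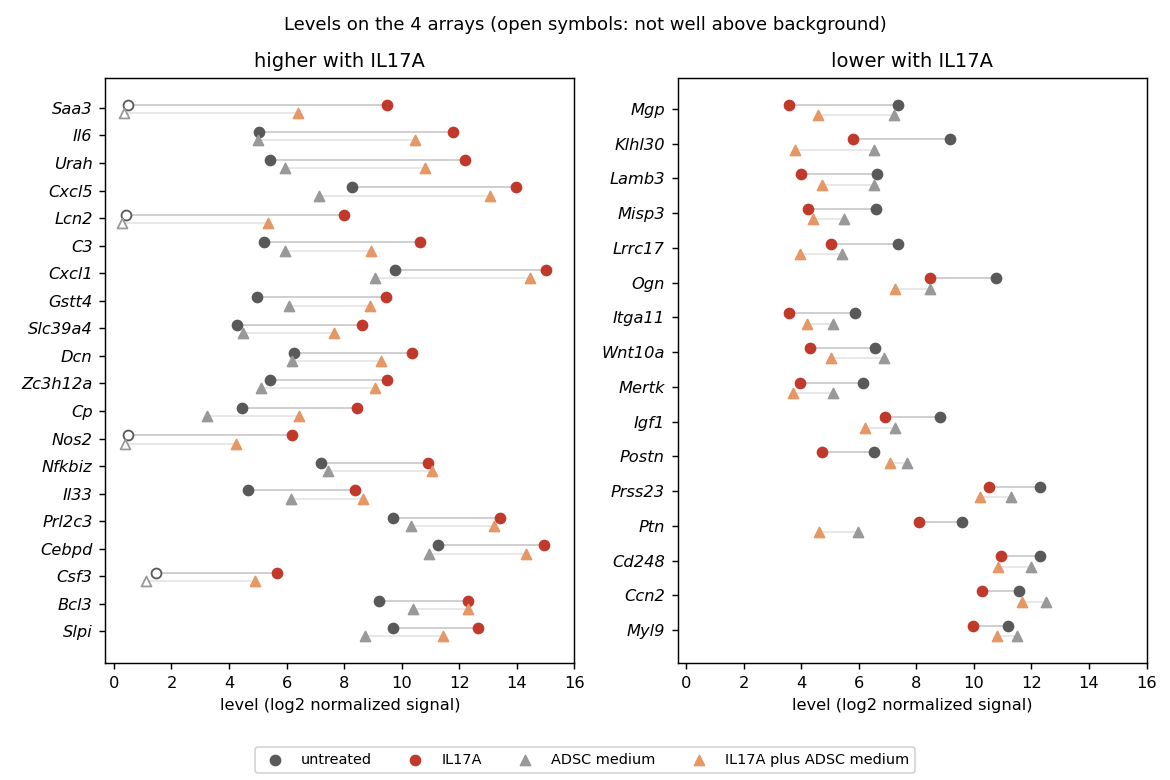
Level of each gene on the 4 arrays (x axis, log2 normalized signal), with circles for the pair without medium and triangles for the pair with ADSC medium, and open symbols where a probe was not well above background. The genes were picked from those called, not by a fixed rule. The IL17A symbol lies right of its partner for each gene on the left and left of it for each gene on the right, in both pairs. This shared direction follows from the choice of genes and is no check of the calls. Named genes that turned with medium, such as Alpl, Foxd2 and Ccl20, are not drawn.

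Of 10 acute-phase and antimicrobial genes measured, 8 were higher and 0 lower, but 4 of the 10 passed the background flag on the IL17A array alone, so the count is partly set by that flag. The median was 1.64 over the other 6. Saa3, a serum amyloid made outside hepatocytes, went from 0.49 to 9.49 and Lcn2, which withholds iron from bacteria, from 0.41 to 8.00. Both were at background on the medium array and at 6.38 and 5.35 with IL17A and medium. The lower bounds were 142-fold and 50.5-fold without medium. Cp, the copper oxidase ceruloplasmin, went from 4.45 to 8.44 by its brightest probe, with 2.68 by another. Camp, the cathelicidin precursor, was at least 7.67-fold higher, Lbp, which binds lipopolysaccharide, differed by 1.83 and the pattern recognition gene Ptx3 by 1.78. Serpina3g (1.49) and Saa1 (1.29) belong to families with close copies, so their probes may read relatives. Of the 8, 5 were higher again with medium, namely Saa3, Lcn2, Cp, Ptx3 and Camp, and 5 were stable.

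In the complement list 4 of 15 were higher and 1 lower, and the list median of 0.05 fell below 0 with 75th percentile and median scaling. C3, the central component, went from 5.20 to 10.65. Its 10 spots gave 5.45 with a technical SD of 0.132, a further probe gave 3.10, and the medium pair went from 5.93 to 8.93. C1s1, a protease of the classical pathway, differed by 1.38 and Serping1, its inhibitor, by 1.14. Of the 4 higher calls, 2 were stable, those of C3 and C1s1. The same 2 were called again with medium, where 3 of the 4 were measured. C2, which forms the convertase with C4 products, was lower, at 11.35 and 9.92. Cfb, its counterpart in the alternative pathway, lay at -0.35. Ptgs2, the inducible cyclooxygenase, went from 8.49 to 10.32 and Nos2, the inducible nitric oxide synthase, from 0.48 to 6.20, at least 14.5-fold, and both were called again with medium. Arg2, which competes for the same substrate as Nos2, was at least 4.68-fold higher without medium and at least 1.49-fold higher with it. The cofactor gene Gch1 differed by 0.97.

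Toll-like receptor genes and adaptors were mostly near 0, with a median of 0.06 and 1 call among 15, the lipopolysaccharide co-receptor Cd14 at 1.41. Tlr7, left out of that list, was named by its size and went from 3.13 to 6.50. Interferon response genes were below 0 in 19 of 22, with a median of -0.22 and 1 call, Oas2 at -1.45. Their medium pair median was -0.10. Interferon-related genes outside the list, chosen after their values were seen, went both ways. Ifitm1, Ifitm2, Ifitm6, Gbp5 and Ifi205 were called higher, and Ifi27l2b, Tgtp1 and Sp100 lower. Among these, Ifitm2 alone was stable. Class I presentation genes were below 0 in 13 of 14, with a median of -0.33, from H2-K1 (-0.56) and the immunoproteasome gene Psmb9 (-0.60) to Nlrc5 (0.09). None passed 2-fold. Both lists kept their direction under each scaling and normexp.

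**Figure D4:**
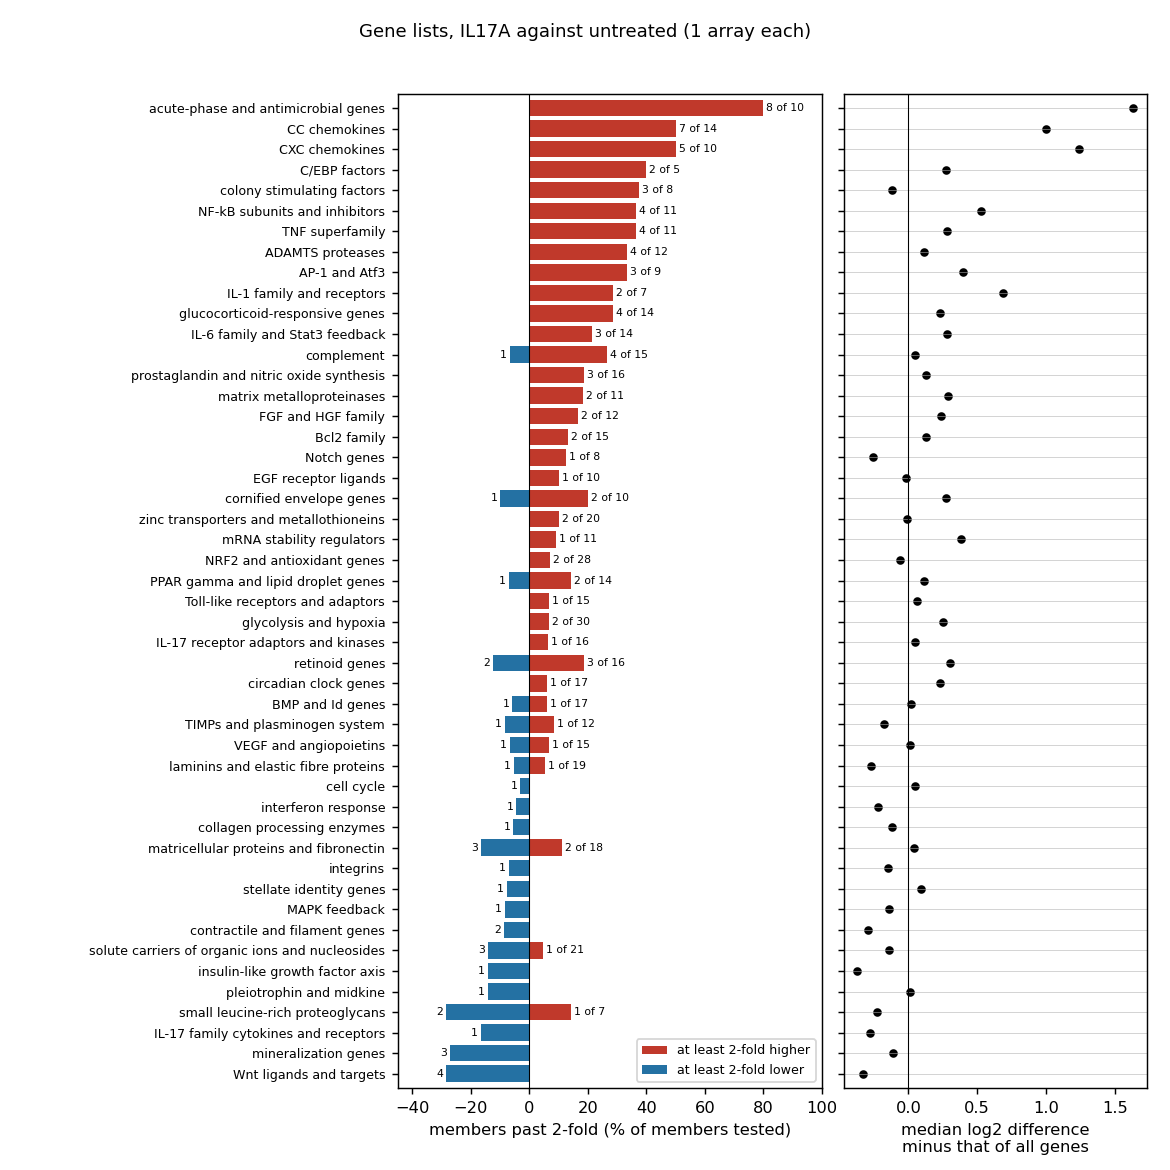
Gene lists with at least 1 call, with the share of measured members at least 2-fold higher (red) or lower (blue) on the left x axis and, on the right, the median log2 difference of the list minus that of all genes. Acute-phase genes (8 of 10) and chemokines have long red bars. Wnt genes (4 of 14), small proteoglycans (2 of 7) and mineralization genes (3 of 11) have shorter blue bars, similar in length to one another. Over all genes measured the shares were 2.18% higher and 2.26% lower. The bars count members above background on 1 array alone, so they are partly set by the background flag. Of the mineralization calls, that of Mgp alone was stable.

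No collagen gene passed 2-fold. Col1a1 went from 15.02 to 14.14 and Col1a2 from 14.77 to 13.87, differences of -0.88 and -0.90 that were -0.41 and -0.72 with medium. Both genes encode the chains of type I collagen, the main fibre of scar tissue. Of 9 fibril-forming collagens 6 were below 0, with Col5a2 at -0.74, but Col3a1 was at 0.35. Of 13 other collagens 11 were below 0, with Col7a1 at -0.83, and the exceptions were Col8a1 (0.50) and Col4a4 (0.33). The medians, -0.36 and -0.35, kept their sign with each scaling and normexp. The summed log2 level went from 16.24 to 15.54 for the fibril-forming collagens but from 15.33 to 15.46 for the others, where sum and median differ in sign. Processing enzymes held 1 call among 18, the crosslinking transglutaminase Tgm2 at -1.23 (the smallest of its 3 probes in size gave -0.46), while the crosslinking oxidase Lox differed by 0.89.

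Small proteoglycans that bind collagen fibrils moved apart. Dcn, which encodes decorin, went from 6.25 to 10.37, 17.4-fold, and from 6.19 to 9.28 with medium. Ogn, which encodes osteoglycin, went from 10.78 to 8.47 and from 8.47 to 7.25. Omd differed by -1.83 and Bgn, the close relative of decorin, by -0.23. The list thus held 1 higher and 2 lower genes among 7, all 3 of them stable. Among matricellular genes, Mgp, an inhibitor of calcification, was the lowest, at 7.36 untreated and 3.58 with IL17A, 13.7-fold lower, and at 7.22 and 4.59 in the medium pair. Postn, a marker of activated fibroblasts, differed by -1.81, and Ccn2, a fibrogenic target of TGF-beta and YAP, went from 11.55 to 10.29. With medium these were -0.62 and -0.82, under 2-fold. Tnc, deposited in wounds, was higher by 1.57 and Vcan, a large proteoglycan of loose matrix, went from 8.12 to 9.22. With medium Tnc was called again and Vcan was not. Of the matricellular calls, those of Ccn2 and Mgp were stable, while those of Postn, Tnc and Vcan were lost with normexp. The list median of 0.04 turned below 0 with 75th percentile and median scaling, so no direction is given for the list.

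The epithelial laminin chain gene Lamb3 differed by -2.63 and the mesenchymal chain gene Lama4 went from 6.03 to 7.72, with other probes of Lama4 up to 3.12. Lamb3 was lower again with medium (-1.80), and Lama4 was at 0.94. Itga11, a collagen-binding integrin of fibroblasts, was the 1 called gene among 14 integrins, at -2.28, against -0.92 with medium. Matrix metalloproteinases held 2 calls among 11, Mmp3 (1.76, and 2.16 with medium) and Mmp19 (1.37, and 0.33). The ADAMTS proteases held 4 higher genes among 12. Of these 12, 2 passed the background flag on the IL17A array alone, and with normexp Adamts7 was the 1 call left. Adamts7 went from 6.60 to 8.83, 4.67-fold, and Adamts9 from 7.23 to 8.36, and both were called with medium as well. Adamts4, which cleaves aggrecan and versican, differed by 1.18. The protease inhibitor genes Timp1 (0.36), Timp3 (0.49) and Timp2 (-0.70) stayed under 2-fold. Plg, the plasminogen gene, was at least 35.9-fold lower, but it was bright on the untreated array alone, at 7.91, and at 0.18 and 0.17 on the medium arrays.

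Contractile genes of the myofibroblast were below 0 in 18 of the 21 members above background on both arrays, with a median of -0.29 that kept its sign with each scaling and normexp. Acta2, the smooth muscle actin that marks the activated stellate cell, was nearly level by its brightest probe, at 13.40 and 13.27. Its 4 probes disagreed in size, from -0.13 down to -1.72. Myl9 went from 11.18 to 9.96 and Lmod1 from 5.88 to 4.46, the 2 genes called of 23. Tagln differed by -0.89, Cnn1 by -0.84 and Vim by -0.59. With medium Lmod1 was lower again (-1.21) and Myl9 was at -0.70. Of the stellate identity genes 1 of 13 was called, the globin gene Cygb at -1.03.

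Of 16 retinoid genes 3 were higher and 2 lower, and with normexp 1 higher and 0 lower remained, with Dhrs3 alone stable. Dhrs3, which turns retinal back into retinol, went from 6.00 to 8.07, and Rdh10, which makes retinal from retinol, from 6.43 to 7.65. Aldh1a1, which makes retinoic acid, went from 5.91 to 4.33 and the retinoic acid carrier gene Crabp2 from 6.52 to 5.41. These 4 were called in the same direction with medium, at 1.52, 1.26, -1.41 and -1.31. Rbp4, the plasma retinol carrier, differed by 1.03. In the lipid droplet list, Fabp4 (1.32) and Angptl4 (1.11) were higher and Plin4, a droplet coat gene, lower, at 9.63 and 8.11. Pparg, the regulator of these genes, differed by -0.65.

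TGF-beta genes held 0 calls among 24 and 17 were below 0, with Pmepa1 at -0.65, Tgfb2 at -0.65 and Ltbp2 at 0.76. Their median of -0.20 was -0.03 with medium. Igf1, a growth factor for fibroblasts, was the 1 lower gene among 7 of its axis and went from 8.82 to 6.90, with 3 probes between -1.95 and -1.79. With medium it went from 7.26 to 6.21. Fgf7, a mitogen for epithelial cells, went from 9.27 to 11.07, and from 8.50 to 10.45 with medium. Ptn, the growth factor pleiotrophin, differed by -1.51 and -1.34. Vegfa stayed under 2-fold at 0.86, and Angpt1 differed by -2.65 by its brightest probe but by 0.36 by another.

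Wnt ligands and targets held 4 lower and 0 higher calls among 14. Of the 14, all passed the background flag untreated and 11 with IL17A, so the count is partly set by that flag. The median was -0.33 over the 11 above background on both arrays. Wnt10a went from 6.57 to 4.30, Wnt6 from 5.71 to 4.44 and Wnt4 from 6.26 to 5.09. In the medium pair these 3 were again at least 2-fold lower, at -1.81, -1.32 and -1.49. Wnt7a was at least 2.79-fold lower and at background on the medium arrays. Wnt3, outside the list and chosen after its value was seen, was higher by a bound of 1.72 at a level of 4.06. Of the 4 lower genes only Wnt10a was stable, since normexp ended the calls of the others. Ereg, a ligand of the EGF receptor, differed by 1.01, Id1, a target of BMP signals, by 1.20, and the BMP antagonist gene Nbl1 by -1.13. Dll1, a Notch ligand, was at least 3.57-fold higher but near background with medium.

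Replication and mitosis genes were level. Of 32 cell cycle genes 0 were higher and 1 lower, with a median of 0.05, Mki67 at -0.02 and Pcna at 0.04. The lower gene was Ccnd1, the cyclin that answers to growth factors. It went from 11.17 to 9.76, and its 10 spots gave -1.42 with a technical SD of 0.0257, against -0.73 in the medium pair. Targets of p53 held 0 calls among 17, with a median of 0.15 and Cdkn1a at 0.19. Among Bcl2 family genes the pro-apoptotic Bcl2l11 went from 8.70 to 10.21 and was called with medium (1.42). Bcl2 itself lay at -0.92. Bmf was higher by 1.21 on 1 probe and its probes differed in direction.

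Glycolysis and hypoxia genes were above 0 in 22 of 30, with a median of 0.26. The lactate exporter Slc16a3 went from 10.57 to 11.78 and Hif1a, the hypoxia factor, from 9.18 to 10.34. With medium they were at -0.17 and 0.77, and the list median was -0.09. Oxidative phosphorylation genes held 0 calls among 34, all between -0.24 and 0.12. Cholesterol and fatty acid synthesis (28 genes) and ER stress (24 genes) held 0 calls as well, with medians of -0.10 and -0.08. In the antioxidant list Sod3, the extracellular superoxide dismutase, went from 5.43 to 7.73 and Gstt4, a glutathione transferase, from 4.96 to 9.44. Targets of NRF2 such as Nqo1 (-0.05) and Hmox1 (-0.01) stayed level.

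Metal handling genes included some of the largest differences. Slc39a4, an importer of zinc, went from 4.29 to 8.62, 20.1-fold, and from 4.48 to 7.66 with medium. It was the 1 call among the zinc importers and exporters, with Slc39a14 at 8.24 and 8.23 and Slc39a8 differing by 0.30. Mt2, which binds zinc and copper, went from 13.53 to 14.91, while Mt1 was at 14.02 on both arrays. Slc11a1, a metal transporter of phagosomes, went from 4.96 to 8.09 and from 6.67 to 8.71. Hlf, a PAR bZIP factor, was the 1 clock-related call, at 2.04 and 1.42. Sprr2h, a cornified envelope gene, went from 3.08 to 7.35 and Sprr1a from 9.02 to 7.56, in both pairs in these directions. The Sprr2 genes are close copies and their probes may read each other's mRNA.

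The largest difference of a gene above background on both arrays was that of Urah, an enzyme of urate breakdown, from 5.41 to 12.19, 110-fold, and from 5.95 to 10.80 with medium. Ccbe1, a secreted factor for lymphatic growth, went from 3.53 to 7.55, with 3 probes between 4.03 and 4.49. The prolactin-related Prl2c3 and Prl2c5, which are near-identical copies, went from 9.69 to 13.40 and from 10.45 to 14.03. Penk, the enkephalin precursor, went from 2.92 to 6.21. Ankk1, a kinase gene, was at least 28.9-fold higher, and Ifitm6 at least 9.50-fold. The bounds of Foxd2 (8.88-fold) and Tcte1 (8.80-fold) rested on spots of uneven pixels, 0.53 and 0.46. Foxd2 was at -0.46 with medium, and Tcte1 was at background on both medium arrays. On mm9 the probes lay on chromosome 7 at 148023696 to 148023755 for Urah, on chromosome 10 at 96980233 to 96980292 for Dcn, and on chromosome 15 at 76442866 to 76442925 for Slc39a4.

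On the lower side, the genes with even pixels after Mgp were Klhl30 (-3.41), Lamb3, Misp3 (-2.36), Lrrc17 (-2.33), Ogn, Itga11, Wnt10a, Mertk (-2.19), Aoc3 (-2.17), Erfe (-1.93) and Igf1. Klhl30, a kelch-family gene, went from 9.18 to 5.78 and from 6.52 to 3.78 with medium. Mertk, a receptor for the clearance of dead cells, went from 6.14 to 3.94 and from 5.09 to 3.70. With medium, Itga11 (-0.92), Erfe (-0.84) and Aoc3 (-0.03) stayed under 2-fold, and the other 9 were called lower again. Slco2b1 (-3.86), Fam209 (-3.38), Vmn1r40 (-2.95), the bone phosphatase gene Alpl (-2.17), Scml4 (-2.17) and Zfp141 (-2.03) rested on untreated spots whose pixels had a relative SD of 0.42 to 0.55. In the medium pair Scml4 was at -0.96, Slco2b1 and Vmn1r40 were at background, and the others were not below 0. The 10 largest lower bounds, from Plg and Cep126 (at least 21.7-fold) to Btbd35f1 (at least 7.18-fold), all came from rows 328 to 512 of the untreated array. Of these 10, Cep126 alone was measured in the medium pair, at 0.34, and the others were at background on both medium arrays and could not be compared.

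Genes outside the lists that passed 2-fold, chosen after their values were seen, included further inflammatory and matrix genes. Slpi, an inhibitor of leukocyte proteases, went from 9.70 to 12.64 and Ier3, an NF-kB target, from 10.44 to 13.18. The sensor gene Nod2 differed by 2.80, its partner kinase gene Ripk2 by 1.38 and the inflammatory caspase gene Casp4 by 2.05. Has1, a hyaluronan synthase gene, differed by 1.93 and Tnfaip6, whose product binds hyaluronan, by 1.55. Enpp2, which makes lysophosphatidic acid, differed by 2.18. On the lower side the pericyte genes Cd248 (-1.35) and Cspg4 (-1.40), the tendon factor Scx (-1.27), the guidance gene Sema3a (-1.39) and the chaperone Clu (-1.90) passed 2-fold. With medium, Ripk2 (0.31), Has1 (0.89), Cspg4 (-0.91) and Scx (-0.78) stayed under 2-fold, and the other 9 of these genes were called in the same direction.

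In the pair with ADSC medium, 452 of 15964 genes measured (2.83%) were higher when IL17A was added and 296 (1.85%) were lower. Of the 344 genes higher without medium, 287 were measured there, and 111 of them (38.7%) were higher again and 3 lower. Of the 357 lower genes, 245 were measured, and 78 (31.8%) were lower again and 5 higher. Taken from the medium pair, the shares were 32.4% of 343 higher genes and 37.9% of 206 lower genes. The sign was kept by 247 of 287 higher genes and by 191 of 245 lower genes. The median of these genes went from 1.44 to 0.77 and from -1.25 to -0.70. They were chosen by their size without medium, which by itself makes the median smaller in another pair. An effect of medium on the response was not tested. Of the genes at least 4-fold apart and above background on both arrays, 54 of 55 higher and 17 of 20 lower genes were measured in the medium pair, where 50 and 8 were called again. Among genes with even pixels that were above background on both arrays, 89 of 216 higher and 68 of 191 lower genes were called again.

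**Figure D5:**
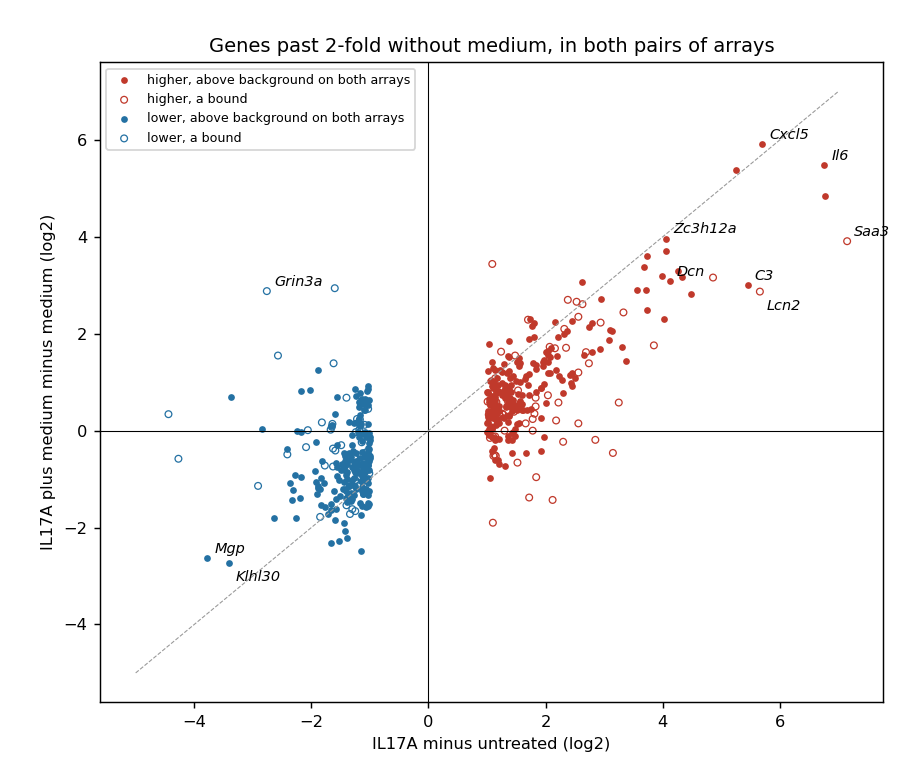
Difference with IL17A without medium (x axis) against the difference with medium (y axis), log2, for genes past 2-fold without medium and measured in both pairs, with filled points above background on both arrays and open points as bounds. Of the higher genes 247 of 287 and of the lower genes 191 of 245 lie on the same side of 0 in both pairs.

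The authors' deposited list of genes up with IL17A holds 861 probes, for which no threshold is given in the sources used here. In the deposited signals after normalization these probes differed by -0.15 to 6.76, with a median of 1.07, and 494 were at least 2-fold higher. Of the 861, 557 were well above background on the IL17A array and 304 on neither array. The probes of 264 of the 344 higher genes stood in it, which is 76.7% of those genes and 30.7% of the list. The probes used here for Saa3, Lcn2 and Urah were not in it. Their differences without bounds, 9.01, 7.59 and 6.78, lay above the highest of the list.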

How the data were processed

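RNA of 4 cultures of mouse IMS/N cells was measured on 1-colour Agilent arrays, 1 array a group. Intensity values were made by the authors with Feature Extraction 12.1.1.1, which subtracted background and detrended within the array, per the file headers, with probe positions on mm9. The flags for spots above background, saturated or outlying are scores of 0 or 1 per the file headers. The submitters' processing notes also name R 3.5.1. Here, control and outlier spots were left out, and limma 3.58.1 in R 4.3.3 put log2 processed signals of the 4 arrays on common quantiles before spots of a probe were averaged. A gene took its brightest probe with an NM_ or NR_ accession, otherwise its brightest other probe, which gave 26691 genes, and the 15765 that passed the background flag on 1 or both arrays were measured. Of 41174 probes, 28696 were named by accession, 5761 by symbol and 163 by synonym in RefSeq tables, and 6554 kept the name in the file. With 1 array a group the pair itself allows no test, and the number of arrays limits the precision. A limma fit over the 4 arrays with slide as a block was added after seeing the data. The 2-fold rule and the block fit were tested on simulated data with spot noise or a fixed spread. That noise was not taken from differences between cultures, so these tests cannot tell how far the calls would repeat.

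Named genes are the 20 largest differences and 10 largest bounds in each direction, and the called and defining members of gene lists. The members and lists were chosen with earlier results of these data known. Alternatives were other scalings, normexp correction, other filters, other probe rules and other folds. Leaving out spots of uneven pixels was added after seeing the data. Promoters came from RefSeq on GRCm38.p6, and those of Cxcl5 and Nfkbiz were not used here. Python 3.11.15, pandas 2.3.3 and matplotlib 3.10.9 were used. Some genes are not reported here.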

Additional observations from a re-analysis of the deposited data

Results flagged for a closer look

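Grin3a, a glutamate receptor subunit gene, was past 2-fold in opposite directions in the 2 pairs of arrays, and the difference between the pairs was not tested. It was at -2.76 on the log2 scale without medium and at 2.88 with it. Both values are bounds, with 1 array of each pair not well above background, and its untreated spot had pixels of a relative SD of 0.52.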

How the results depend on the processing

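Against 344 genes higher and 357 lower, normexp correction gave 97 and 63. No filter on background gave 971 and 1081, a fold of 1.5 gave 899 and 1018, and a fold of 4 gave 93 and 69. Requiring both arrays above background gave 231 higher and 211 lower. Percentile and median scaling, quantile normalization over 2 arrays, the other probe rules and the pixel filter kept both counts within 1.5 times. The difference of Nexmif turned to 0.61 with the mean of its RefSeq probes. Of the 701 genes called, 0 changed sign under the 3 other scalings, 1 (Sec1) with normexp, 2 of the 572 left by the pixel filter, 2 with the brightest probe of any kind and 29 with the mean of RefSeq probes. Of the 562 differences of genes named by rank under alternatives, 434 kept their value within the noise, 127 moved and 1 reversed. The cause of these changes was not tested, except that the filters and folds change which genes can pass. The medians of the complement, matricellular, BMP, oxidative phosphorylation, zinc transporter and macrophage marker lists changed sign with 75th percentile and median scaling. That of the pleiotrophin and midkine list changed sign with normexp. Both arrays lie on 1 slide, so a block needs the medium pair, and slide and medium cannot be told apart. A limma fit of IL17A with slide as a block over the 4 arrays, added after seeing the data for 14393 genes well above background on all 4, put 132 genes past 2-fold higher and 112 lower in the mean of both pairs, against 206 and 199 of these genes without medium. With 1 residual degree of freedom, 0 genes passed an adjusted p of 0.05 (the smallest was 0.189), and 643 higher and 1232 lower genes had an unadjusted p under 0.05. By chance alone a share of 0.05 of the 14393 genes, both directions together, would have such an unadjusted p. These genes are not taken as called. Signal near background limits genes below a level of 5, where spots of 1 probe differ most.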
